A study of Mus musculus with 10 samples.

Results

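Eph receptors and ephrins were measured in the mouse optic nerve head, where the axons of retinal ganglion cells leave the eye, 3 days after a brief rise of eye pressure. The genes were chosen by name: Epha4, Ephb2, Ephb3 and Ephb4 among the receptors, and Efnb1, Efnb2, Efna1 and Efna5 among the ligands. Of these 8 names, 7 were the only gene symbol of at least 1 probe set, and together they had 14 of the 20380 probe sets with a single gene symbol. They are 7 of the 12393 genes measured. Ephb2 was not analysed here.

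All tissue came from male C57Bl/6 mice aged 6 to 8 weeks. In the elevated pressure group the right eye was held at 30 mmHg for 1 h through a micropipette in the anterior chamber, connected to a bag of saline, and recovered for 3 days. The control group was the left eye, which had no surgery. Each array carried RNA from a pool of 2 nerve heads, with 5 arrays in each group from 10 mice, so operated right eyes were compared with unoperated left eyes of the same mice, and the effects of pressure, cannulation and side cannot be told apart.

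Eph receptors are receptor tyrosine kinases that bind ephrins on the surface of a neighbouring cell, and both the receptor cell and the ephrin cell receive a signal. Ephrins of the A class are held to the membrane by a lipid anchor and mainly bind EphA receptors, while ephrins of the B class span the membrane and mainly bind EphB receptors, with EphA4 binding both classes. In the developing visual system they steer ganglion cell axons to the optic disc and order their endings in the brain, in vessels they separate arteries from veins, and in the optic nerve head the B class has been described on glia and axons in mouse glaucoma.

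Array medians of the signal over all probe sets ran from 414 to 475. The astrocyte filament gene Gfap ranged from 10644 to 12631 and the myelin gene Mbp from 13490 to 15433 in all pools, while the photoreceptor gene Sag, which belongs to neighbouring retina, ranged from 200 to 3200. Elevated pressure replicate 1 was the array least like the others. Its mean correlation with the other arrays was 0.974, against 0.986 to 0.989 for each other array, and its 3'/5' signal ratio at Gapdh, a control of RNA quality, was 2.07, against 1.53 to 1.73. At actin, where that ratio was 2.10, it did not stand apart, since elevated pressure replicate 4 had 2.13 and the other arrays 1.65 to 1.94. For the genes named, the brightest probe set is the main one. A log2 fold change there of at least 0.1 in size that moved by over 1.5 times without this array is given both ways. Other probe sets were not fitted without this array, so their log2 fold changes are given from all arrays only. The number of arrays limits the precision of every comparison.

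No Eph receptor or ephrin passed the test of elevated pressure against control. The limma adjusted p was 0.849 or more for each of the 7 genes, and 0% of all 12393 genes passed at an adjusted p under 0.05. Ephb3 had the largest difference of the 7, a log2 fold change of 0.52 toward higher signal after elevated pressure. The other 6 lay between -0.17 and 0.09. At an unadjusted limma p under 0.05, Ephb3 alone was found among the 7, where 492 of all genes, or 3.97%, lay below that level. The groups overlapped on the main probe set of all 7 genes, and they were separate in 0.629% of all genes. The log2 fold change was above 0 in 4 of the 7 genes, with a median of 0.05, against 47.3% of all genes and a median of -0.01.

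**Figure D1:**
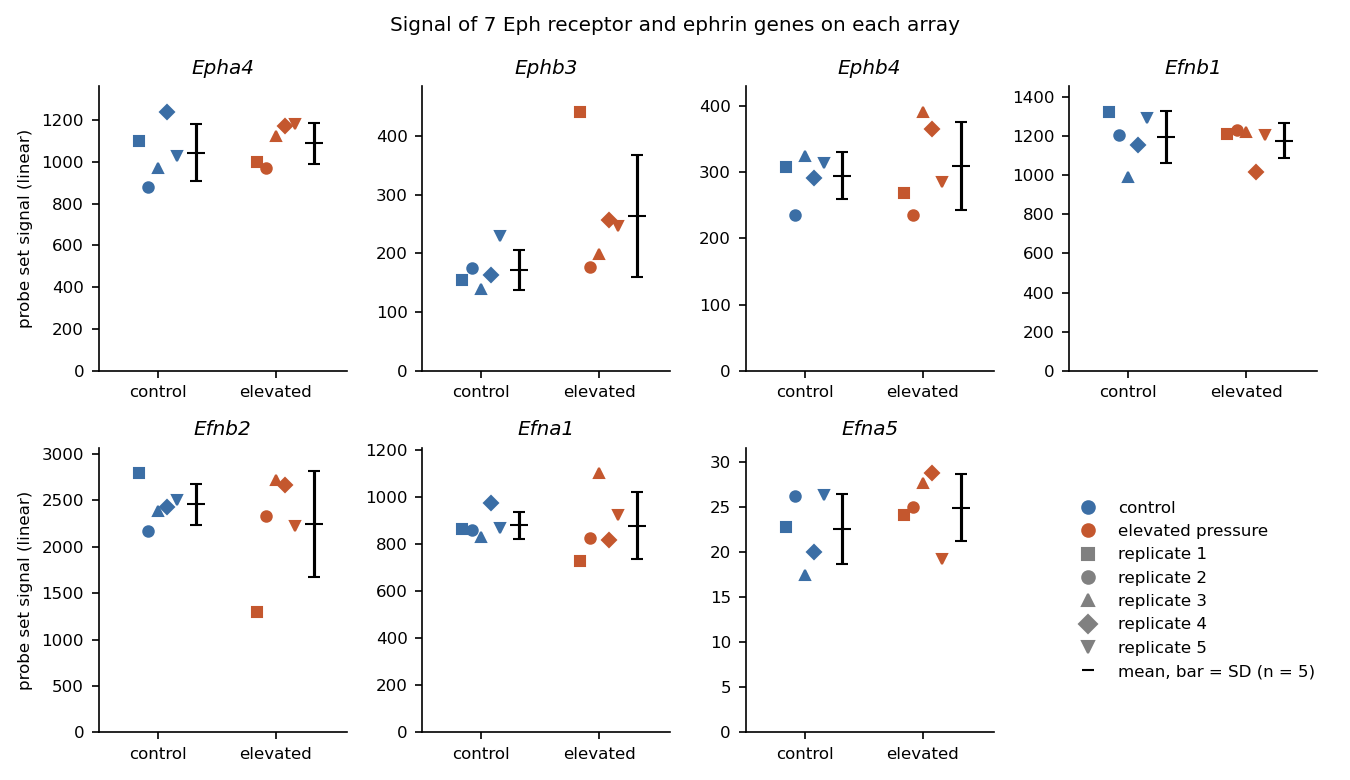
Linear signal of the brightest probe set of each of the 7 genes on each array, with the mean and SD of 5 arrays per group. In elevated pressure replicate 1, Ephb3 at 441 is the highest and Efnb2 at 1293 the lowest of the 10 arrays.

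Among the receptors, Epha4 is found on axons and astrocytes and accepts ephrins of both classes. Its main probe set read 1099, 879, 971, 1238 and 1028 in control replicates 1 to 5. In elevated pressure replicates 1 to 5 it read 999, 968, 1124, 1169 and 1178. Every elevated pressure array fell inside the control range. The control mean was 1043 ± 136 (SD, n = 5) and the elevated pressure mean 1088 ± 97.8 (SD, n = 5), which gave a log2 fold change of 0.06 (95% confidence interval -0.17 to 0.30). The interval leaves room for a fall to 0.891-fold or a rise to 1.23-fold. A second, dimmer probe set gave -0.02, with an interval from -0.29 to 0.26.

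Ephb3 is a receptor of B-class ephrins and takes part in guiding retinal axons to the optic disc. It read 154, 175, 139, 164 and 229 in control replicates 1 to 5. After elevated pressure the 5 replicates read 441, 177, 199, 257 and 247. Replicates 1, 4 and 5 of the elevated pressure group lay above every control array, and replicates 2 and 3 lay within the control range. The means were 172 ± 34.5 (SD, n = 5) and 264 ± 104 (SD, n = 5). The log2 fold change of 0.52 had a standard error of 0.217 and a 95% confidence interval from 0.05 to 1.00. The unadjusted limma p was 0.0343, and the two-sided exact permutation p over the 252 splits of the arrays was 0.0397. Neither is adjusted for the other genes, and both treat the pools as independent, though both groups hold eyes of the same mice. Without elevated pressure replicate 1 the log2 fold change was 0.33 (limma adjusted p = 1.00). It stayed above 0 with each of the 10 arrays left out in turn, between 0.33 and 0.64, and the unadjusted limma p ranged from 0.0136 to 0.0785, under 0.05 in 3 of the 10 cases. Elevated pressure replicate 1, with the highest Ephb3 and the lowest Efnb2 signal, had a 3'/5' ratio of 2.07 at Gapdh and 2.10 at actin. Replicate 4, with an actin ratio of 2.13, read 257 for Ephb3 and 2662 for Efnb2, and the part of RNA quality in these values was not tested. Ephb3 had 1 probe set, so no second readout on the array could be set beside it.

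Ephb4, the receptor that marks veins, read 308, 236, 325, 291 and 314 in control replicates 1 to 5. In elevated pressure replicates 1 to 5 the signal was 269, 236, 391, 365 and 285. Replicates 3 and 4 lay above every control array, and replicate 2 and control replicate 2 were the lowest, both at 236. The means were 295 ± 34.9 (SD, n = 5) and 309 ± 65.9 (SD, n = 5), with a log2 fold change of 0.05 and an interval from -0.27 to 0.37. Leaving out 1 array moved the value between -0.04 and 0.14, the extremes coming from the loss of elevated pressure replicates 3 and 2, so no direction can be given.

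Among the ligands, Efnb2 encodes ephrin-B2, which marks arteries and is a partner of the EphB4 receptor. Its main probe set read 2788, 2172, 2385, 2429 and 2506 in control replicates 1 to 5. In the elevated pressure group the readings were 1293, 2333, 2712, 2662 and 2224. Replicate 1 was the lowest of all 10 arrays, and the other 4 lay inside the control range. The means were 2456 ± 223 (SD, n = 5) and 2245 ± 572 (SD, n = 5), with a log2 fold change of -0.17 and an interval from -0.58 to 0.24. Without elevated pressure replicate 1 the log2 fold change was 0.02.

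Efnb2 had 4 probe sets, and they did not read alike. The second brightest, 1419638_at, also had its lowest value, 691, in elevated pressure replicate 1, against 1229 to 1883 on the other arrays, and gave a log2 fold change of -0.30 with an interval from -0.75 to 0.15. The dimmer 1449548_at and 1449549_at read 111 and 77.9 on that array, within the control ranges of 109 to 148 and 67.7 to 137, and both had log2 fold changes near 0 (0.00 and 0.01). Over the 10 arrays the main probe set followed 1419638_at with Pearson r 0.90 (permutation p = 0.00596) and Spearman rho 0.64 (permutation p = 0.0553). Among the 11 pairs of probe sets of 1 gene the adjusted p for this r was 0.0614 and that for rho 0.152, and r was 0.57 without elevated pressure replicate 1. The main probe set and 1449549_at had r 0.06.

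Efnb1, the X-linked ephrin-B1, read 1322, 1206, 989, 1154 and 1291 in control replicates 1 to 5. The elevated pressure replicates read 1207, 1232, 1221, 1014 and 1205. All 5 lay inside the control range. The means of 1192 ± 132 (SD, n = 5) and 1176 ± 91.0 (SD, n = 5) gave a log2 fold change of -0.02, with an interval from -0.23 to 0.20. The other probe sets stood at 0.06 and 0.21, the latter with an interval from -0.21 to 0.62. The sign of the main value turned under several settings, so no direction can be given.

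Efna1 encodes ephrin-A1, a ligand known from endothelium and an activator of the EphA2 receptor. It read 863, 861, 829, 977 and 868 in control replicates 1 to 5. The elevated pressure replicates read 727, 827, 1101, 817 and 924. Here the elevated pressure group was the wider, with replicate 3 above every control array and replicates 1, 2 and 4 below them. The means were 880 ± 56.7 (SD, n = 5) and 879 ± 142 (SD, n = 5), a log2 fold change of -0.01 with an interval from -0.25 to 0.23. The second probe set had the same replicates 1, 2 and 4 below every control array and gave -0.20, with an interval from -0.49 to 0.10. The probe sets followed each other over the 10 arrays with r 0.76 (permutation p = 0.0112) and rho 0.77 (permutation p = 0.0131), adjusted to 0.0614 and 0.0719 over the 11 pairs. Without elevated pressure replicate 1 this r was 0.61.

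Efna5, a repellent ligand for retinal axons at their targets, was dim. The signal ranged from 17.4 to 26.3 in control pools, with a mean of 22.5 ± 3.86 (SD, n = 5), and from 19.2 to 28.7 in elevated pressure pools, with a mean of 24.9 ± 3.68 (SD, n = 5). Replicates 3 and 4 of the elevated pressure group, at 27.6 and 28.7, were just above the control range. These values lie near the 16 added before the log, which pulls the log2 fold change of 0.09 (interval -0.13 to 0.30) toward 0, and without detection calls it is not known whether the probe set was above background.

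**Figure D2:**
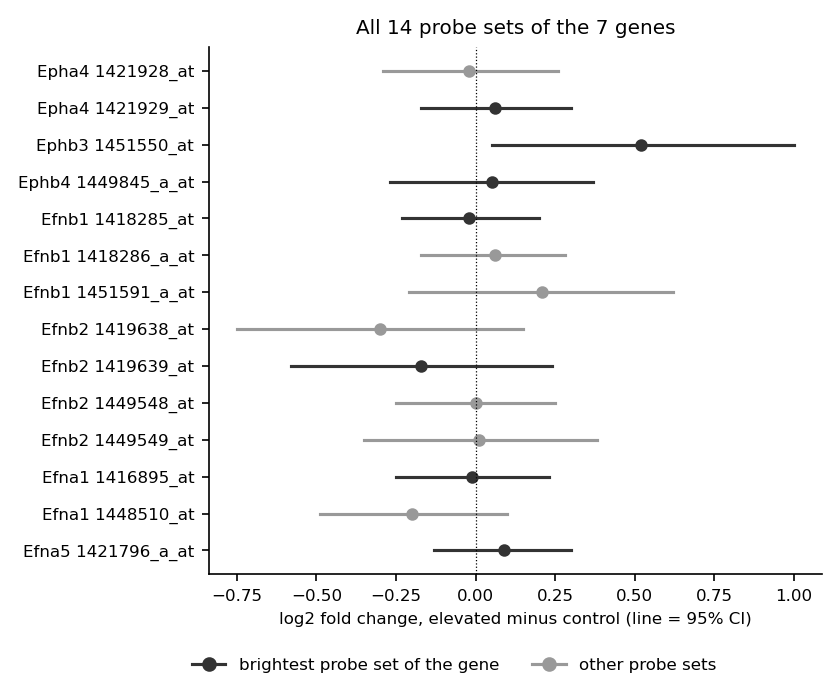
Log2 fold change, elevated pressure minus control, of all 14 probe sets of the 7 genes, with 95% confidence intervals. Ephb3 is the only probe set whose interval, from 0.05 to 1.00, leaves out 0.

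The intervals show what the arrays could bound. On the main probe set, the 95% confidence interval stayed inside 1.5-fold either way for 6 of the 7 genes. Efnb2 came close to that limit at 0.671-fold. The exception was Ephb3, whose upper bound was 1.00 on the log2 scale. Another probe set of Efnb2, 1419638_at, reached down to 0.597-fold, and one of Efnb1, 1451591_a_at, up to 1.54-fold. Efna5 counts among the 6, but the constant added before the log pulls its fold change toward 0. Whether its probe set was above background is not known, so its interval does not bound the gene. Across all genes 76.8% of intervals lay within 1.5-fold. The highest over the lowest array was 1.34-fold for Efnb1, 1.41-fold for Epha4 and 3.18-fold for Ephb3, and its median was 1.75-fold over all genes and 1.57-fold over genes with a mean signal over 100, to which these 3 belong.

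**Figure D3:**
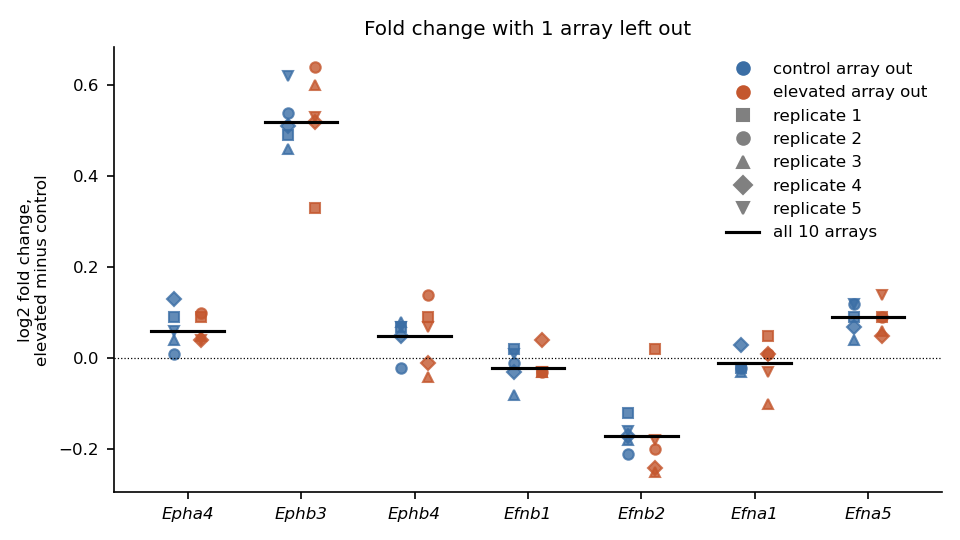
Log2 fold change of each of the 7 genes with 1 array left out at a time, coloured by the group of the array left out, and the value from all 10 arrays as a line. Ephb3 drops from 0.52 to 0.33 and Efnb2 moves from -0.17 to 0.02 when elevated pressure replicate 1 is left out.

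The pools differed in the signal of marker genes, and the Ephb3 signal ran opposite to that of myelin genes, though not past adjustment. A marker score was taken as the mean log2 deviation of a list of marker genes on an array. The myelinating oligodendrocyte score, from 7 of 8 listed genes, ranged from -0.16 to 0.39 in control pools and from -0.81 to 0.19 in elevated pressure pools, with the lowest value in elevated pressure replicate 1, where Ephb3 was highest. All 7 myelin genes had a log2 fold change below 0 (median -0.14) and none passed the test. All 9 photoreceptor genes measured, of 10 listed, had one above 0 (median 0.60) and none passed, with scores from -1.37 to 1.45 in control and from -0.87 to 1.41 in elevated pressure pools. Ephb3 had r 0.10 (permutation p = 0.802) and rho 0.28 (permutation p = 0.427) with that score, adjusted to 0.968 and 0.907, and r 0.17 without control replicate 4 and elevated pressure replicate 4. Ephb3 and the myelin score had r -0.89 (permutation p = 0.00308) and rho -0.72 (permutation p = 0.0242) over the 10 arrays, and r -0.88 for deviations from the group means. Over the 84 pairs of genes and scores computed, the adjusted p were 0.16 and 0.339, so the relation did not pass. Without control replicate 3 and elevated pressure replicate 1, the arrays farthest from the median score, r was -0.52, and without elevated pressure replicate 1 alone it was -0.66. With the myelin score as a covariate, an alternative added after seeing the data, the log2 fold change of Ephb3 was 0.26 (limma adjusted p = 1.00). In bulk tissue, fewer cells of a type and less RNA per cell cannot be told apart. Elevated pressure replicate 1 also had the highest 3'/5' ratio at Gapdh (2.07), and the part of RNA quality in the scores was not tested.

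The score of oligodendrocyte precursor genes, from 5 of 6 listed, gave a like picture, from -0.23 to 0.42 in control and from -0.65 to 0.19 in elevated pressure pools. Ephb3 had r -0.84 (permutation p = 0.00424) and rho -0.64 (permutation p = 0.0541) with it, adjusted to 0.16 and 0.455, and r -0.45 without the same 2 arrays.

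Epha4, Ephb4 and Efnb2 were correlated with endothelial genes from pool to pool, though not past adjustment. The endothelial score, from all 10 listed genes, ranged from -0.45 to 0.42 in control and from -0.31 to 0.40 in elevated pressure pools. Epha4 had r 0.77 (permutation p = 0.0114) and rho 0.72 (permutation p = 0.024) with it, and r 0.73 without control replicates 1 and 2, the arrays farthest from the median score. Ephb4 had r 0.72 (permutation p = 0.0193) and rho 0.67 (permutation p = 0.0389), and again 0.72 without those arrays. Efnb2 had r 0.62 (permutation p = 0.0353) and rho 0.85 (permutation p = 0.00254), with r 0.65 without those arrays and 0.79 without elevated pressure replicate 1. None of these passed after adjustment over the 84 pairs, with adjusted p for r of 0.16, 0.203 and 0.269 and for rho of 0.339, 0.363 and 0.213. After quantile normalization r was 0.59, 0.56 and 0.53. Epha4 was not correlated with endothelial genes alone. It had r 0.74 with arterial endothelial genes, 0.69 with mural cell genes and 0.65 with photoreceptor genes. The permutation p were 0.0147, 0.0275 and 0.0433, adjusted to 0.177, 0.257 and 0.303. Without the 2 arrays farthest from the median of each score these r were 0.80, 0.29 and 0.37. Of the 84 pairs 12 had an unadjusted permutation p under 0.05 for r and 0 an adjusted p under 0.05. Both groups hold eyes of the same mice and the labels do not say which pools share them, so the 10 pools are not independent and these p-values may be too small.

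**Figure D4:**
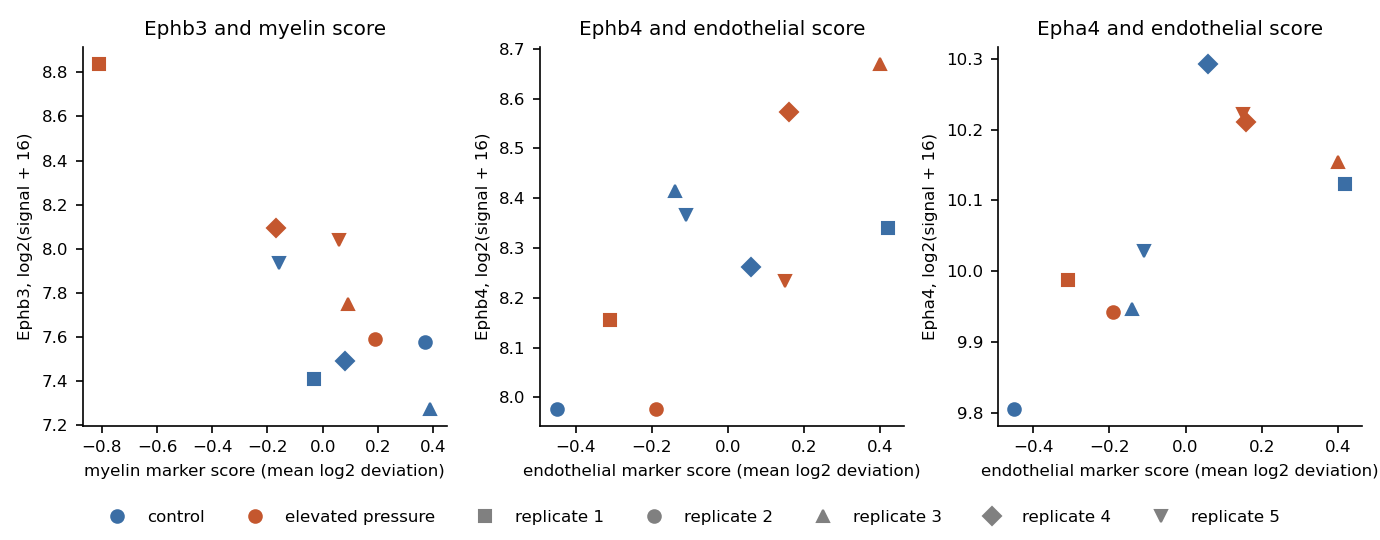
Log2 signal of Ephb3, Ephb4 and Epha4 on each array against marker scores, the mean log2 deviation of myelin or endothelial genes. Ephb3 runs opposite to the myelin score (r -0.89, or -0.66 if elevated pressure replicate 1 is dropped), while Ephb4 and Epha4 are higher where the endothelial score is higher (r 0.72 and 0.77), none past adjustment.

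The 7 genes did not vary as a block. Over the 21 pairs Pearson r ranged from -0.74 to 0.60 with a median of 0.09, and 0 pairs had a permutation p under 0.05 for r, before or after adjustment. The lowest r was that of Ephb3 with Efnb2 (-0.74, permutation p = 0.054, adjusted p = 0.642), with rho -0.27 (permutation p = 0.448, adjusted p = 0.728). It rested on elevated pressure replicate 1, without which r was 0.03, and it was -0.19 without elevated pressure replicates 1 and 4. The vessel pair Ephb4 and Efnb2 had r 0.48 (permutation p = 0.18, adjusted p = 0.642) and rho 0.75 (permutation p = 0.0175, adjusted p = 0.367), and r 0.53 without elevated pressure replicates 2 and 3.

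The rest of the family was measured for 12 of 14 further names, and none passed the test. Of these 5 had a log2 fold change above 0 and 7 below, with a median of -0.04. Efna3, another lipid-anchored ligand, had the lowest unadjusted limma p (0.0261, adjusted p = 0.849). It read 101, 88.6, 86.7, 67.5 and 54.5 in control replicates 1 to 5. The elevated pressure replicates read 96.3, 94.5, 94.1, 150 and 122. Replicates 4 and 5 lay above every control array, and the others lay between control replicate 1 and the remaining controls. Its log2 fold change of 0.42 had an interval from 0.06 to 0.78, and was 0.32 without elevated pressure replicate 4.

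Among the other receptors Ephb6, whose kinase domain is inactive, stood at 0.31 (interval -0.04 to 0.67). Epha8 stood at 0.28 (interval -0.03 to 0.60), and at 0.15 without elevated pressure replicate 4, which read 139 against 73.7 to 89.8 in the rest of its group. The log2 fold changes of Epha1, Epha3 and Epha6 were 0.12, -0.01 and 0.04, with 0.05 to 0.21 for Epha1 when 1 array was left out, and the signal of Epha6 did not exceed 12.5. Other probe sets stood at 0.18 and 0.10 for Epha1 and at 0.11 and -0.03 for Epha3. Epha2 had a log2 fold change of -0.07 and spread from 79.2 to 313 after elevated pressure against 135 to 188 in control. Epha5 and Epha7, receptors of A-class ephrins on axons, had log2 fold changes of -0.43 and -0.42. Their lowest signal over the 10 arrays was in the elevated pressure group, at 91.4 (replicate 2) and 30.8 (replicate 3). Without that array the values were -0.12 for Epha5 and -0.06 for Epha7. Another probe set of Epha5 stood at -0.12, and 2 dimmer probe sets of Epha7 at -0.17 (interval -0.43 to 0.09) and 0.10 (interval -0.22 to 0.42).

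Among the other ligands Efna2 and Efna4 had log2 fold changes of -0.33 and -0.06, and Efna2 stood at -0.20 without elevated pressure replicate 1. Efnb3, an ephrin of oligodendrocytes that myelin carries, had one of -0.26. It read 2139, 3395, 3375, 2623 and 1774 in control replicates 1 to 5. After elevated pressure it read 1373, 3377, 2273, 1747 and 2461. Its lowest value was in elevated pressure replicate 1, where the myelin score was -0.81. Its highest values were in control replicates 2 and 3 and elevated pressure replicate 2, where that score was 0.37, 0.39 and 0.19. Without elevated pressure replicate 1 its log2 fold change was -0.10, the other arrays left out in turn moved it as far as -0.43 (without elevated pressure replicate 2), and with the myelin score as a covariate it was 0.06.

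**Figure D5:**
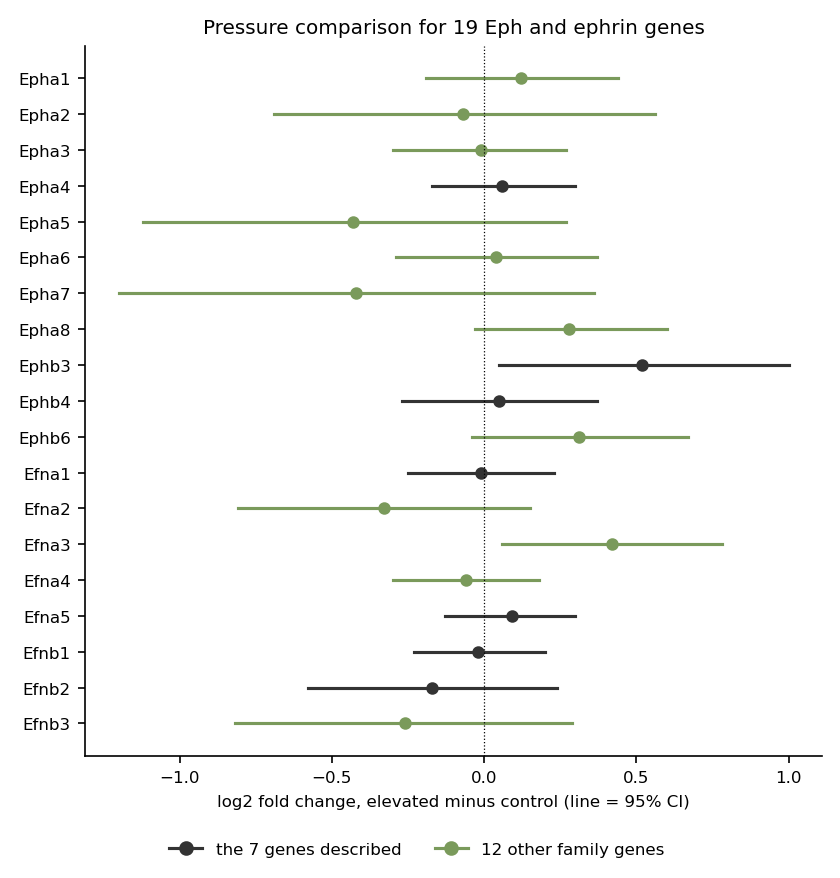
Log2 fold change, elevated pressure minus control, of 19 Eph receptor and ephrin genes with 95% confidence intervals, on the brightest probe set of each gene. The intervals of Ephb3 (0.05 to 1.00) and Efna3 (0.06 to 0.78) leave out 0, and neither gene passed the limma test over all genes.

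Proteins that carry the signal inside the receptor cell were measured for 24 of 28 listed genes. None passed the test, 11 had a log2 fold change above 0 and 13 below, and the median was -0.09. Vav3, a guanine nucleotide exchange factor recruited by Eph receptors, had a control mean of 435 ± 127 (SD, n = 5) and an elevated pressure mean of 303 ± 82.2 (SD, n = 5), or a log2 fold change of -0.50. Its other probe sets stood at -0.53 and -0.07. Ngef, the exchange factor ephexin that binds EphA receptors, had a log2 fold change of 0.31, and Chn1, a chimaerin that lowers Rac activity downstream of EphA4, one of -0.42, which moved to -0.27 if elevated pressure replicate 1 was left out and to -0.58 if replicate 4 of that group was.

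Proteins on the ligand side, including PDZ proteins, shedding proteases and co-receptors, were measured for 14 of 16 genes. None passed, 7 lay on either side of 0, and the median was -0.01. Ngfr, the p75 receptor that partners A-class ephrins on axons, had means of 1999 ± 193 (SD, n = 5) and 2426 ± 371 (SD, n = 5) and a log2 fold change of 0.27, with dimmer probe sets at 0.17 (interval -0.14 to 0.47) and 0.00. Pick1, which binds the tails of B-class ephrins, stood at 0.36, and at 0.20 without control replicate 1. The protease gene Mmp2 stood at 0.61 with an interval from -0.05 to 1.27, and its other probe set at 0.63.

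Of 27 genes of semaphorin, slit, netrin and related guidance systems 24 were measured, none passed, and the median was 0.02. Robo4, an endothelial receptor of that group, had means of 489 ± 125 (SD, n = 5) and 694 ± 167 (SD, n = 5) and a log2 fold change of 0.49. The plexin genes Plxnd1 and Plxnb2 stood at 0.43 and 0.24, and Plxnb2 at 0.16 to 0.32 when 1 array was left out. In each of these 3 lists, the genes named are the 3 with the smallest unadjusted p.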

How the data were processed

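Per the labels' protocols, total RNA of each pool was amplified from 30 ng, biotin-labelled and hybridised to 1 array. The authors deposited probe set intensity on a linear scale, from 0.69 to 20168. How probes were summarised, corrected and normalized is not known from the sources used. Array medians differed, so the probe set values themselves had not been quantile normalized, while an earlier normalization of single probes cannot be told from them. Values were put on the scale log2(signal + 16), where fold changes of dim genes are understated. Of 22690 probe sets 64 were controls, and the platform annotation gave 1 gene symbol for 20380, several for 691 and no entry for 1555. The Entrez identifiers of all 7 genes gave the same symbol in a RefSeq mouse table. Each gene was read from the probe set with the highest mean log2 value over all arrays, blind to group, without a filter on dim genes.

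The main test was limma 3.58.1 in R 4.3.3, with lmFit, eBayes and no covariates, and Benjamini-Hochberg adjustment over the 12393 genes. The test and its intervals treated the pools as independent, though both groups hold eyes of the same mice. Correlations used 100000 permutations. On simulated data with 200 genes changed, limma recovered 41.4% of those with a log2 change of 0.5 and 79.6% of those with a change of 1. In these runs noise was independent between genes, changes reached a log2 size of 2, and 7.9 unchanged genes were called per run. The adjusted p depends on how many genes change, so these shares do not hold for a change in few genes. Genes were named by rule: all family genes, and the 3 with the smallest p of each signalling list. A further list is not reported here. The genes and lists were chosen with earlier results of these data known. Alternatives were other pseudocounts, normalizations, probe set rules, filters, variance models, array weights, replicate blocks, covariates and left-out arrays. Labels call the pools biological replicates. Other steps used Python 3.11.15 (SciPy 1.17.1, pandas 2.3.3, NumPy 2.4.6, Matplotlib 3.10.9).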

Additional observations from a re-analysis of the deposited data

Results flagged for a closer look

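Samples far from the other 4 of their group were looked for in 70 groups of 5 arrays by the ratio of gap to range, and 8 were found, where chance gives about 1 in 20 groups. Among the 7 genes, Efnb2 probe set 1419639_at in elevated pressure replicate 1 read 1293 (ratio 0.73) and Efnb1 probe set 1451591_a_at on the same array read 210 (0.75). Epha4 probe set 1421928_at in control replicate 1 read 311 (0.93), while the main Epha4 probe set on that array read 1099, inside the range of its group. Efnb1 probe set 1418285_at in elevated pressure replicate 4 read 1014 (0.88), and Efna1 probe set 1416895_at in control replicate 4 read 977 (0.72). Ephb3 at 441 in elevated pressure replicate 1 did not pass this limit.

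Among other genes, Epha1 in elevated pressure replicate 4 read 130 (ratio 0.84), Efna4 in elevated pressure replicate 5 read 95.5 (0.74), and Pick1 in control replicate 1 read 327 (0.73).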

How the results depend on the processing

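In all 30 other settings 0 genes passed at an adjusted p under 0.05, with 0 at 0.10 in the main setting, and the lowest adjusted p of any gene was 0.481. Of 206 values of the 7 genes under these settings 181 kept their sign, among them all of Ephb3, Epha4 and Efna5, and the lowest adjusted p was 0.561. With arrays or replicate numbers left out, log2 fold changes ran from -0.04 to 0.14 for Ephb4, -0.10 to 0.04 for Efnb1, -0.26 to 0.06 for Efnb2, -0.12 to 0.05 for Efna1, -0.36 to 0.13 for Epha2, -0.16 to 0.10 for Epha3, -0.13 to 0.16 for Epha6 and -0.12 to 0.01 for Efna4, while Ephb3 ran from 0.30 to 0.65. Signs near 0 also turned with equal array medians (Efnb1 0.00, Efna1 0.01, Epha3 0.01) and array weights (Efnb1 0.00, Efna1 0.02, Epha3 0.04, Efna4 0.00). They did so as well with the mean over probe sets (Efnb1 0.08, Epha3 0.02), quantile normalization (Epha3 0.02) and the photoreceptor score as a covariate (Epha6 -0.01). With the myelin score as a covariate they turned for Efna1 (0.05), Epha2 (0.05) and Epha3 (0.06). That covariate also moved Efnb3, which was not near 0, from -0.26 to 0.06. The cause of these turns was not tested. Without the dimmest 50% of genes, which leaves out Ephb3, Ephb4 and Efna5, the median of the other family genes was -0.14 and that of the receptor-side list -0.28, over fewer genes. The correlation of Ephb3 with the microglial score, -0.72, was 0.28 without its 2 farthest arrays.

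Replicate numbers are shared by the groups, but same-numbered arrays had correlations of deviations from -0.08 to 0.213, and 2 of 5 control arrays correlated best with their own number, so no pairing was taken. With the replicate block as a fixed effect 0 genes passed (451 at an unadjusted p under 0.05, against 492), and Ephb3 stood at 0.52 (limma adjusted p 0.888). Without detection calls, signal over background is not known, which limits Efna5 and Epha6.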

Other observations

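Efna1, Efna3 and Efna4 follow each other on the mouse chromosome with 0 protein-coding genes between them in the RefSeq gene table. Their log2 fold changes were -0.01, 0.42 and -0.06, with intervals from -0.25 to 0.23, 0.06 to 0.78 and -0.30 to 0.18, and the differences between them were not tested.

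Further marker scores moved with single genes from pool to pool, none past adjustment over the 84 pairs. Ephb4 had r 0.77 (permutation p = 0.00985, adjusted p = 0.16) and rho 0.67 (permutation p = 0.0386, adjusted p = 0.363) with arterial endothelial genes, and r 0.75 without control replicate 1 and elevated pressure replicate 2. With the same score Efnb2, which marks arteries, had r 0.39 (permutation p = 0.278, adjusted p = 0.716) and rho 0.72 (permutation p = 0.0219, adjusted p = 0.339). Without elevated pressure replicate 1 these r were 0.76 for the vein marker Ephb4 and 0.74 for Efnb2, so the gap in r rested on that array. By rho, Efnb2 stood above Ephb4. Efnb2 had r 0.76 (permutation p = 0.00576, adjusted p = 0.16) and rho 0.67 (permutation p = 0.0381, adjusted p = 0.363) with genes of meninges and fibroblasts, and r 0.37 without control replicate 1 and elevated pressure replicate 1, so this relation rested on those arrays. Efnb1 had r -0.76 (permutation p = 0.0103, adjusted p = 0.16) and rho -0.76 (permutation p = 0.0152, adjusted p = 0.339) with astrocyte genes, and r -0.24 without control replicate 3 and elevated pressure replicate 4.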
